A study of Mus musculus with 10 samples.

Results

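The interferon regulatory factors (IRFs) are transcription factors that bind interferon-stimulated response elements, and the 8 members described here, *Irf1*, *Irf2*, *Irf3*, *Irf4*, *Irf5*, *Irf7*, *Irf8* and *Irf9*, were picked by gene symbol. All 8 were among the 53974 genes of the RNA-seq table, and all 8 were among the 17555 genes tested, which reached a TPM of 1 in 3 or more of the 6 libraries. TPM is a transcript abundance already divided by transcript length and scaled to the same sum in each library. Of the 16600 ATAC-seq regions, 3 lay within 1000 bp of either end of a member gene. ATAC-seq cuts open chromatin with a transposase, so that a region or peak marks accessible DNA.

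Every mouse was a C57BL/6 animal of 8 to 10 weeks with floxed *Arid1a* alleles, received AAV2 in the vitreous, and underwent optic nerve crush (ONC) 2 weeks later. WT mice received AAV2-GFP and carry the genotype label *Arid1a* fl/fl. cKO mice received AAV2-Cre and are labelled *Arid1a* del/del. Retinas were taken 3 days after ONC, 4 to 5 retinas were pooled per sample, and living cells stained for Thy1.2 were sorted, which gave 3 WT and 3 cKO RNA-seq libraries and 2 WT and 2 cKO ATAC-seq libraries. The controls thus shared the floxed alleles, an AAV2 vector and the injury. The CMV promoter that drives Cre and GFP is not limited to retinal ganglion cells (RGCs). The titers were not matched, since the study gives a higher one for AAV2-GFP than for AAV2-Cre. Its authors propose that viral infection and immunity terms among their changed genes may be linked to titers and operations. Titer and label go together in these samples, so their parts cannot be told apart and were not tested.

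IRF3 and IRF7 are latent in the cytoplasm until sensors of foreign nucleic acid lead to their phosphorylation, after which they switch on type I interferon genes. IRF9 carries the response to secreted type I interferon, and IRF1 carries much of the response to interferon gamma, with IRF2 as its competitor at shared sites. IRF5 works downstream of Toll-like receptors, and IRF4 and IRF8 act with PU.1 and BATF family partners in lymphocytes and myeloid cells. IRF8 is needed for the normal development of microglia, the resident macrophages of the retina.

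The promoters of 5 members are shown because the results turn on them. *Irf1*, *Irf2* and *Irf3* had an accessible region in both WT libraries, *Irf7* and *Irf8* had the largest RNA differences, and *Irf3* had the smallest. RefSeq windows on GRCm38.p6, running from 250 bases before to 50 after an annotated start, were found for all 8 members (11 windows, since *Irf1*, *Irf8* and *Irf9* have a second start). The first window of *Irf1* is chr11:53769764-53770063, that of *Irf2* chr8:46739495-46739794, that of *Irf3* chr7:44997398-44997697 and that of *Irf8* chr8:120736108-120736407, all on the plus strand, and that of *Irf7* is chr7:141266375-141266674 on the minus strand. Capitals mark matches to the ISRE core GAAANNGAAA, the gamma-activated site (GAS) TTCNNNGAA, the NF-kB consensus and TATAAA on either strand.
Irf1: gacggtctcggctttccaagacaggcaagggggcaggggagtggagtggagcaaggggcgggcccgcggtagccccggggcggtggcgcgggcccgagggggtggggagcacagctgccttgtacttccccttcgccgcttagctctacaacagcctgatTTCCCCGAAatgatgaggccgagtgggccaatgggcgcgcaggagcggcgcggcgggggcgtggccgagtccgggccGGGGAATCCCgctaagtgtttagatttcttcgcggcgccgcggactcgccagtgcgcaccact
Irf2: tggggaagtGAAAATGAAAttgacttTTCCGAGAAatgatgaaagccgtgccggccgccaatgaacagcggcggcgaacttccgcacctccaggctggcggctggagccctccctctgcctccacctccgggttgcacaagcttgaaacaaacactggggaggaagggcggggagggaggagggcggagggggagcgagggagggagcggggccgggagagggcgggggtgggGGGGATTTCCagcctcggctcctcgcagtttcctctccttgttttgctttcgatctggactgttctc
Irf3: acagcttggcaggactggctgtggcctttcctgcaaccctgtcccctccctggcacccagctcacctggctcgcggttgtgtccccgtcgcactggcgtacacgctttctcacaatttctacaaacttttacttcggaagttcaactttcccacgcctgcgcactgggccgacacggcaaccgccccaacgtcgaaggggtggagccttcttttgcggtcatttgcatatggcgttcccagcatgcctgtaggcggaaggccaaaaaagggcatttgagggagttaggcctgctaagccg
Irf7: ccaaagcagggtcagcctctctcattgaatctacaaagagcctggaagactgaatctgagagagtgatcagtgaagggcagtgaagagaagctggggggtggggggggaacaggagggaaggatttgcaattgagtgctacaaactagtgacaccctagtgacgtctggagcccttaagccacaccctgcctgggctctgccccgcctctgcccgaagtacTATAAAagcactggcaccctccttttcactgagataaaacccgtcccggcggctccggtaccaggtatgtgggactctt
Irf8: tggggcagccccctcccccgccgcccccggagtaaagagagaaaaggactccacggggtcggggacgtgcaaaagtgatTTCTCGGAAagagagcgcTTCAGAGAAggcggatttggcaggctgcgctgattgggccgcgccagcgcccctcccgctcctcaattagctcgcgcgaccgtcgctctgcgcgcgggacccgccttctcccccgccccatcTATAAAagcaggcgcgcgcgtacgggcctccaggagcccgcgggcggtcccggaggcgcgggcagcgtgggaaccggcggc

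No capitalised match overlapped another in these 5 windows. *Irf1* held the GAS TTCCCCGAA 90 to 82 bases before its start and the NF-kB match GGGGAATCCC 13 to 4 bases before it. *Irf2* was the one member with an ISRE core, GAAAATGAAA, 241 to 232 bases before its start, and it also held a GAS and an NF-kB match. *Irf8* held 2 GAS matches, TTCTCGGAA and TTCAGAGAA, and a TATAAA, and *Irf7* a TATAAA alone. *Irf3* held none of the 4. Among all 32851 windows of the same length, 3.44% held an ISRE core, 8.30% a GAS, 4.51% an NF-kB match and 13.6% a TATAAA. In the member windows these numbered 1, 3, 2 and 3 of 11, and the TATAAA matches were in *Irf4*, *Irf7* and *Irf8*. The GC box GGGCGG stood in 8 of the 11 windows, against 35.7% of all windows, CCAAT in 3 against 37.4%, and the ETS site CCGGAA in 0 against 14.9%. A match is a run of letters and says nothing of binding.

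The sorted libraries did not carry the RNA profile of pure RGCs. *Arid1a* RNA, the targeted gene, was 18.8, 11.7 and 14.1 TPM in the WT libraries and 18.8, 27.9 and 25.0 TPM in the cKO libraries (log2 fold change 0.66, SE 0.28, limma adjusted p = 0.274). Its level thus gave no sign of the deletion in those labelled cKO, though a gene-level TPM also counts exons outside a deleted stretch, and every direction below is by label. The RGC transcription factors *Pou4f2* and *Pou4f3* were below 1 TPM in every library, and *Rbpms*, an RGC marker, reached 6.43 TPM at most. The summed RGC list (11 genes, *Thy1* left out) held 81.5 to 153 TPM in WT and 98.1 to 147 TPM in cKO. *Isl1*, which bipolar and amacrine cells also make, stood at 51.9 to 104 TPM and carried most of the list's sum, and *Nefl* reached 20.6 TPM. Of 8 tested genes of the list, 1, *Tubb3*, was higher in cKO at an unadjusted p under 0.05, against 11.9% of all genes. Lists of immune cells were higher in WT and lists of photoreceptors and amacrine cells higher in cKO, and their values stand beside the member results. In such bulk samples, fewer cells of a type and less RNA per cell cannot be told apart.

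As a family, IRF RNA was about 2-fold lower in the libraries labelled cKO, but no single member passed the test. The 8 members summed to 589, 478 and 589 TPM in WT and to 270, 194 and 352 TPM in cKO, a ratio of means of 2.03. All 8 had a negative log2 fold change, from -0.13 for *Irf3* to -1.73 for *Irf8*, with a median of -1.14 against 0.16 over all genes tested. At an adjusted p under 0.05 (limma, Benjamini-Hochberg), 0 of the 8 members were called, where 0% of the 17555 genes were called lower and 0.00570% (1 gene) higher. At an unadjusted p under 0.05, 6 of 8 members were lower, against 6.45% of all genes lower and 11.9% higher. In 5 of 8, every cKO library was below every WT library, as in 7.18% of all genes, and in 0 of 8 was every cKO library above, as in 18.7%. Scaling by the median of ratios lowered the median of all genes from 0.16 to 0.01 and the share of higher genes among those with an unadjusted p under 0.05 from 64.9% to 44.2%, and left all 8 members negative.

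**Figure D1:**
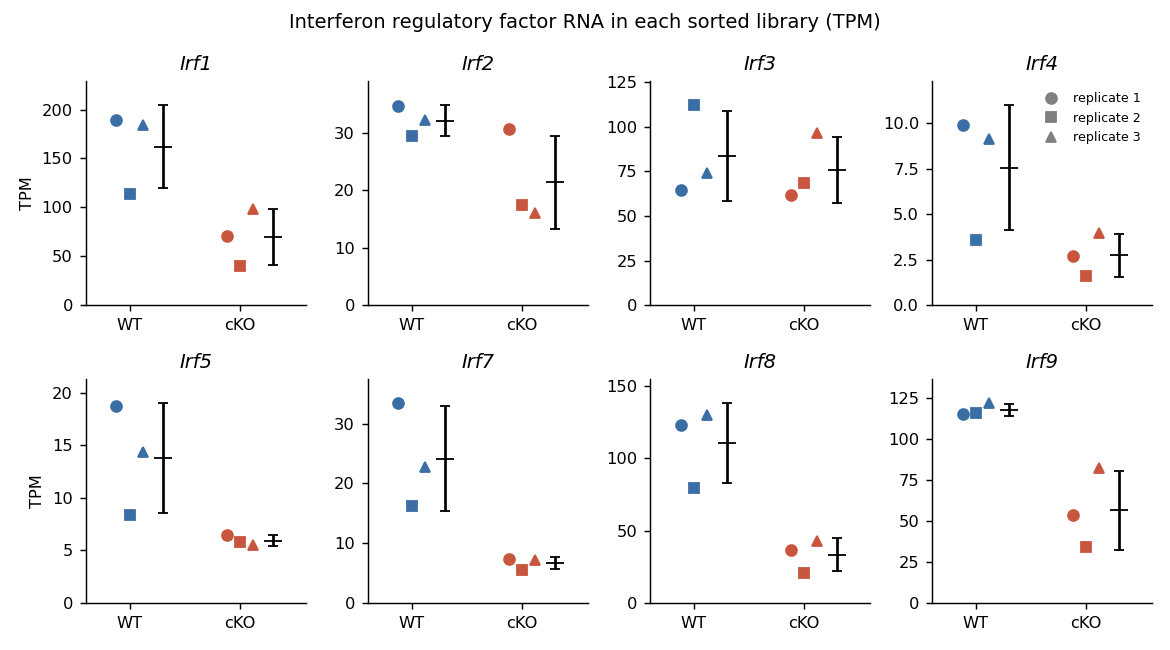
TPM of the 8 IRFs in each RNA-seq library (symbols mark replicates 1 to 3, blue WT, red cKO), with the mean and SD of each group as a black bar beside the points; each panel has its own linear axis from 0. The groups are apart for *Irf1*, *Irf5*, *Irf7*, *Irf8* and *Irf9* and overlap for *Irf2*, *Irf3* and *Irf4*.

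Among the factors that start the type I interferon response, *Irf3* and *Irf7* differed in pattern. *Irf3*, which most cells make without stimulation, lies on chromosome 7 from 44997648 to 45002848. It was 64.5, 112 and 74.1 TPM in WT (83.5 ± 25.1, SD, n = 3) and 61.5, 68.4 and 96.4 TPM in cKO (75.4 ± 18.5, SD, n = 3). The groups overlapped widely, and the log2 fold change was -0.13 (SE 0.29, 95% interval -0.82 to 0.55, limma adjusted p = 0.837). Its sign was not stable, since it was 0.10 without WT replicate 2. *Irf7*, which interferon itself induces, lies on the same chromosome from 141263183 to 141266499. It was 33.5, 16.2 and 22.8 TPM in WT (24.1 ± 8.74, SD, n = 3) and 7.34, 5.53 and 7.16 TPM in cKO (6.68 ± 0.999, SD, n = 3). Even the lowest WT library was well above the highest cKO library, and the log2 fold change was -1.66 (SE 0.32, 95% interval -2.42 to -0.90, limma adjusted p = 0.124). *Irf7* was 3.62-fold lower in cKO by group means, but its call did not pass.

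Of the factors that respond to secreted interferon, *Irf9* and *Irf1* were below WT in every cKO library and *Irf2* overlapped, and none of the 3 passed the test. *Irf9*, on chromosome 14 from 55603985 to 55610030, was 115, 116 and 122 TPM in WT (118 ± 3.87, SD, n = 3) and 53.5, 34.0 and 82.2 TPM in cKO (56.6 ± 24.2, SD, n = 3). The 3 WT libraries were nearly level, while the cKO libraries spread widely below them, and the log2 fold change was -1.13 (SE 0.32, limma adjusted p = 0.156). *Irf1*, on chromosome 11 from 53770014 to 53778374, was 189, 113 and 184 TPM in WT (162 ± 42.4, SD, n = 3) and 70.8, 40.6 and 98.0 TPM in cKO (69.8 ± 28.7, SD, n = 3). The groups were apart, but only by a ratio of 1.16 between WT replicate 2 and cKO replicate 3, and the log2 fold change was -1.26 (SE 0.37, limma adjusted p = 0.164). *Irf2*, the competitor of IRF1, spans chromosome 8 from 46739745 to 46847458 and is the longest member. It was 34.8, 29.4 and 32.3 TPM in WT (32.1 ± 2.70, SD, n = 3) and 30.7, 17.4 and 16.0 TPM in cKO (21.4 ± 8.08, SD, n = 3). One cKO library lay among the WT libraries and the other two at lower values, for a log2 fold change of -0.62 (SE 0.30, 95% interval -1.32 to 0.08, limma adjusted p = 0.311).

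Among the members known from immune lineages, *Irf8* had the largest difference of the family and *Irf4* the lowest level. *Irf8*, on chromosome 8 from 120736358 to 120756694, was 123, 79.3 and 130.1 TPM in WT (111 ± 27.6, SD, n = 3) and 36.8, 20.7 and 42.6 TPM in cKO (33.4 ± 11.4, SD, n = 3). The lowest WT library was 1.86-fold above the highest cKO library, and the log2 fold change was -1.73 (SE 0.34, 95% interval -2.53 to -0.93, limma adjusted p = 0.124). Only 1.76% of the genes tested had a lower log2 fold change. *Irf5*, on chromosome 6 from 29526130 to 29541869, was 18.8, 8.33 and 14.4 TPM in WT (13.8 ± 5.23, SD, n = 3) and 6.49, 5.80 and 5.53 TPM in cKO (5.94 ± 0.494, SD, n = 3). The cKO libraries were close together and below all WT libraries, with a log2 fold change of -1.03 (SE 0.34, limma adjusted p = 0.186). *Irf4*, on chromosome 13 from 30749233 to 30766981, was the scarcest member, at 9.91, 3.60 and 9.15 TPM in WT (7.56 ± 3.44, SD, n = 3) and 2.68, 1.59 and 3.95 TPM in cKO (2.74 ± 1.18, SD, n = 3). WT replicate 2 lay below cKO replicate 3, so the groups overlapped, and the log2 fold change was -1.14 (SE 0.44, limma adjusted p = 0.232). The exact two-sided permutation test gave p = 0.1 for *Irf1*, *Irf5*, *Irf7*, *Irf8* and *Irf9*, the smallest that 3 against 3 libraries allow, p = 0.2 for *Irf2* and *Irf4*, and p = 0.6 for *Irf3*.

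**Figure D2:**
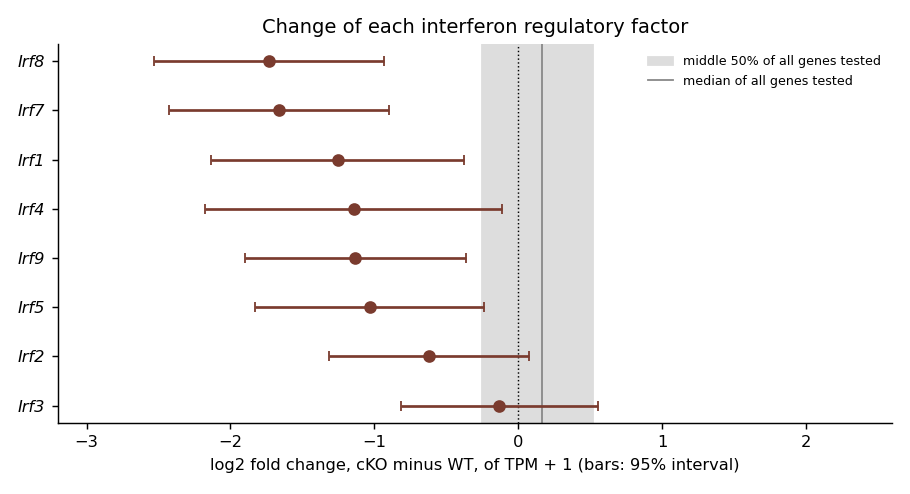
Log2 fold change of TPM + 1 (cKO minus WT) of each IRF, with its 95% interval from the limma fit, over the middle 50% (grey band) and the median (grey line) of all 17555 genes tested. *Irf8* and *Irf7* lie farthest to the left at -1.73 and -1.66, and the intervals of *Irf2* and *Irf3* reach past 0.

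The order of the members by level was close in both groups, apart from *Irf3*. In WT the means ran from *Irf1* (162 TPM) through *Irf9* (118), *Irf8* (111), *Irf3* (83.5), *Irf2* (32.1), *Irf7* (24.1) and *Irf5* (13.8) to *Irf4* (7.56). The one pair of neighbours whose ranges did not overlap was *Irf3* and *Irf2*, so each other neighbour in the order did not differ beyond its spread. Members further apart could, as both *Irf1* and *Irf9* lay above *Irf3* in range, *Irf2* above *Irf5* and *Irf7* above *Irf4*. In cKO *Irf3* came first at 75.4 TPM, ahead of *Irf1* (69.8), *Irf9* (56.6), *Irf8* (33.4), *Irf2* (21.4), *Irf7* (6.68), *Irf5* (5.94) and *Irf4* (2.74). There the ranges of *Irf2* and *Irf7*, and those of *Irf5* and *Irf4*, did not overlap, while those of the other neighbours did. *Irf3* made up 10.9%, 23.4% and 12.6% of the summed IRF TPM in WT and 22.8%, 35.3% and 27.4% in cKO, so WT replicate 2 exceeded the lowest cKO library. *Irf8* made up 21.0%, 16.6% and 22.1% in WT and 13.6%, 10.6% and 12.1% in cKO, with no overlap.

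A ratio taken within a library does not depend on how libraries are scaled against each other. *Irf3* was chosen as the denominator after its values were seen. The ratio of *Irf8* to *Irf3* was 1.91, 0.708 and 1.76 in WT and 0.598, 0.302 and 0.442 in cKO. For *Irf7* it was 0.519, 0.144 and 0.307 in WT and 0.119, 0.0808 and 0.0743 in cKO, and for *Irf9* it was 1.78, 1.03 and 1.65 in WT and 0.870, 0.498 and 0.852 in cKO. These 3 ratios did not overlap between the groups (exact permutation p = 0.1 each, the smallest possible). The share of all genes whose ratio to *Irf3* does not overlap was not computed, so how unusual 3 of 7 is cannot be judged. The ratios of *Irf1*, *Irf2*, *Irf4* and *Irf5* to *Irf3* overlapped (exact permutation p = 0.3 to 0.4). Set side by side by replicate number, which is not known to pair the libraries, the ratio was lower in cKO in 3 of 3 pairs for *Irf1*, *Irf2* and *Irf4*. For *Irf5* it was lower in 2 of 3. WT replicate 2, which had the highest *Irf3* value, gave the lowest WT ratio for all 7.

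Upstream of IRF3, IRF5 and IRF7, the sensors and kinases included both overlapping and separated genes. Of 17 listed genes 15 were tested and 0 were called at an adjusted p under 0.05 (limma). By an unadjusted p under 0.05, 5 were lower and 0 were higher, against 6.45% and 11.9% of all genes. The median log2 fold change was -0.31. That median was -0.70 without WT replicate 2, -0.53 without cKO replicate 3, -0.20 without WT replicate 3 and -0.19 without cKO replicate 2. *Tbk1*, the kinase that phosphorylates IRF3 and IRF7, was 86.6, 73.1 and 131 TPM in WT and 106, 78.6 and 142 TPM in cKO, with overlapping groups. Its inducible relative *Ikbke* was 17.3, 8.20 and 24.6 TPM in WT and 4.78, 2.15 and 5.59 TPM in cKO (log2 fold change -1.72, SE 0.47, limma adjusted p = 0.151). The adaptor *Myd88* (-0.95, SE 0.25) and *Ifih1*, the sensor MDA5 (-1.22, SE 0.35), were lower in every cKO library as well, at limma adjusted p values of 0.145 and 0.156.

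Of 10 interferon genes, *Ifng* alone had enough RNA to be tested. *Ifnb1*, *Ifna1*, *Ifna2*, *Ifna4*, *Ifna5*, *Ifna11*, *Ifnl2* and *Ifnl3* were listed at 0 in all 6 libraries and *Ifne* was below 1 TPM. *Ifng*, the product of T cells and natural killer cells, was 159, 15.2 and 117 TPM in WT and 29.2, 6.88 and 20.5 TPM in cKO. WT replicate 2 lay below 2 of the cKO libraries, and the log2 fold change was -1.97 (SE 0.91, limma adjusted p = 0.303), or -2.99 without that library.

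Among the receptors, kinases and signal carriers that work with IRF9, 11 of 11 genes were tested and 0 were called. At an unadjusted p under 0.05, 5 were lower, against 6.45% of all genes, and the median log2 fold change was -0.32. *Ifngr1*, a chain of the interferon gamma receptor, was abundant and overlapped between the groups (-0.71, SE 0.29, limma adjusted p = 0.264). The 2 largest differences were in *Socs1* (-1.79, SE 0.31) and *Usp18* (-1.46, SE 0.31), feedback inhibitors of the pathway, both at a limma adjusted p of 0.124 and both lower in every cKO library.

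The target lists held the most uniform differences. All 20 type I interferon targets were tested, 0 were called, and at an unadjusted p under 0.05 14 were lower and 0 were higher, and the median log2 fold change was -1.40. *Bst2*, which tethers budding virus, was 145, 103 and 78.8 TPM in WT and 27.7, 14.8 and 34.4 TPM in cKO (log2 fold change -2.08, SE 0.37, limma adjusted p = 0.124). *Rtp4* (-2.10, SE 0.38), *Ifit3* (-1.65, SE 0.36) and *Ifi35* (-1.34, SE 0.33) were likewise lower in every cKO library, at limma adjusted p values of 0.124, 0.124 and 0.138. Of the 20 interferon gamma targets of IRF1, 0 were called, and at an unadjusted p under 0.05 17 were lower and 0 were higher, and the median was -1.48. *B2m*, the light chain of MHC class I, was 4779, 1195 and 2622 TPM in WT and 1115, 568 and 851 TPM in cKO (log2 fold change -1.60, SE 0.52, limma adjusted p = 0.186). The immunity-related GTPases *Iigp1* (-2.65, SE 0.56) and *Igtp* (-1.90, SE 0.41) and the peptide-loading protein *Tapbp* (-1.22, SE 0.31) were lower in every cKO library, at limma adjusted p values of 0.124, 0.124 and 0.138. Read against the 6.45% of all genes that were lower at an unadjusted p under 0.05, these counts were high, but both lists were chosen with results of these data known.

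The partners of IRF4 and IRF8 had a median log2 fold change of -1.21, or -0.61 without WT replicate 1. Of the 10 genes 0 were called and 4 were lower at an unadjusted p under 0.05, against 6.45% of all genes. *Ets1*, a lymphocyte factor, was 61.9, 61.2 and 45.5 TPM in WT and 11.6, 7.21 and 8.43 TPM in cKO (log2 fold change -2.52, SE 0.27, limma adjusted p = 0.0856). *Spib*, the relative of PU.1 in lymphoid cells, was lower in every cKO library (-2.13, SE 0.50, limma adjusted p = 0.126). *Tcf3* overlapped, with a WT range from 14.0 to 148 TPM. Of the 3 cofactors of IRF2, 0 were called (median -0.39, or 0.0014 without WT replicate 2). *Irf2bp2* was lower in every cKO library (-0.49, SE 0.21, limma adjusted p = 0.283) and *Irf2bpl* overlapped (-0.39, SE 0.40, limma adjusted p = 0.630).

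**Figure D3:**
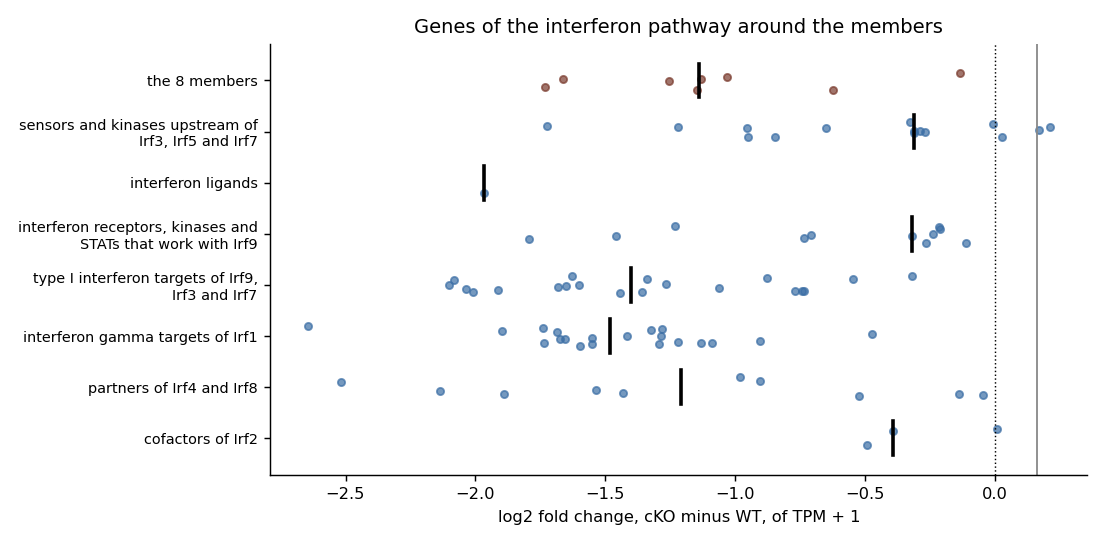
Log2 fold change of TPM + 1 (cKO minus WT) of the 8 IRFs and of each tested gene in 7 pathway lists; points are genes, spread vertically within a list for sight, black bars are list medians, the grey line is the median of all genes tested and the dotted line is 0. All 20 type I interferon targets and all 20 interferon gamma targets lie below 0, while the sensor list reaches above it.

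Immune cell markers moved with the IRFs. Counts of marker genes below are at an unadjusted p under 0.05, where 6.45% of all genes were lower and 11.9% higher. The summed T cell list held 943 to 2875 TPM in WT and 248 to 612 TPM in cKO, with 11 of 12 genes lower at an unadjusted p under 0.05. The microglia and macrophage list held 2443 to 3843 TPM in WT and 1122 to 1531 TPM in cKO (5 of 14 lower). The B cell and plasma cell list held 1318 to 6332 TPM and 551 to 1221 TPM (5 of 7 tested lower), the natural killer cell list 79.1 to 191 TPM and 13.8 to 44.8 TPM (4 of 5 lower), and the dendritic cell list 44.9 to 113 TPM and 29.7 to 34.5 TPM (3 of 7 lower). The rod list went the other way, from 12166 to 16988 TPM in WT to 24865 to 47441 TPM in cKO (7 of 7 higher), as did the cone list, from 1774 to 2424 TPM in WT to 3186 to 5884 TPM in cKO (5 of 6 higher). The amacrine list held 220 to 425 TPM in WT and 563 to 1205 TPM in cKO (2 of 6 higher). The bipolar list (0 of 6) and those of Mueller glia (1 of 6 lower) and of endothelial cells and pericytes (1 of 5 lower) had fewer such genes. No listed marker was at 0 in all libraries, but *Pax5*, *Xcr1* and *Cdh5* were below 1 TPM throughout. None of these genes was called at an adjusted p under 0.05 (limma), and the part of cell makeup in the IRF differences was not tested.

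**Figure D4:**
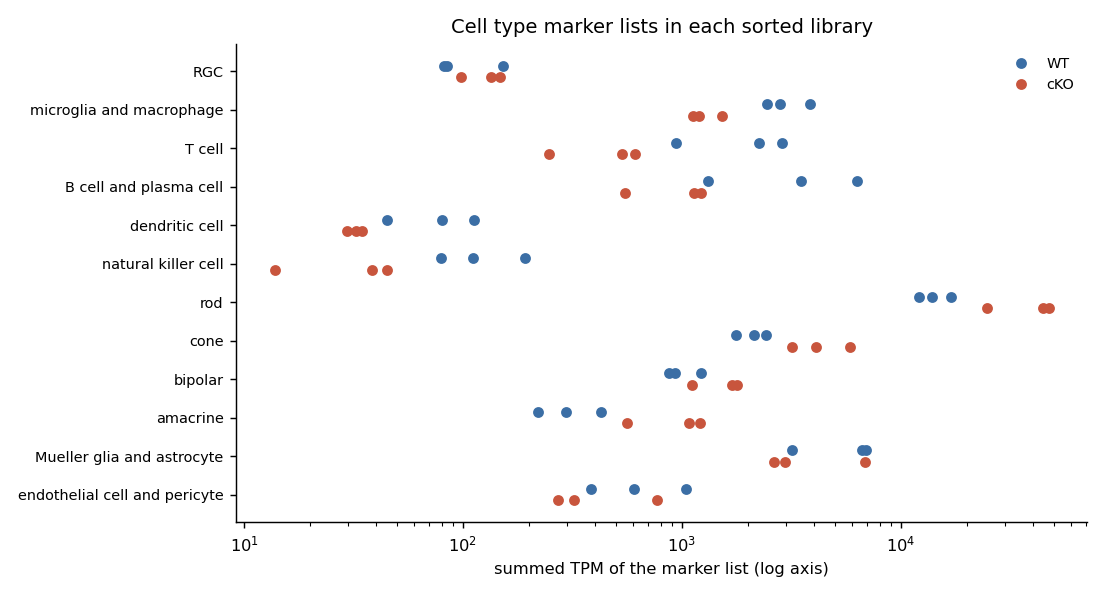
Summed TPM of each marker list in each RNA-seq library on a log axis (blue WT, red cKO, 3 points each). The T cell, microglia, B cell, dendritic and natural killer cell lists lie lower in cKO and the rod, cone and amacrine lists higher, while the RGC list overlaps between 81.5 and 153 TPM.

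Members were also set against these sums within each library, as a description. The pairs of member and list were chosen after the values were seen. Per 1000 TPM of the microglia and macrophage list, *Irf8* was 43.9, 32.5 and 33.9 in WT and 24.0, 17.3 and 38.0 in cKO, with cKO replicate 3 among the WT values. *Irf5* was 6.67, 3.41 and 3.75 in WT and 4.24, 4.86 and 4.93 in cKO on the same scale, and *Irf7* was 11.9, 6.61 and 5.93 in WT and 4.79, 4.63 and 6.38 in cKO, again with overlap. Per 1000 TPM of the T cell list, *Irf4* was 3.45, 3.82 and 4.05 in WT and 4.38, 6.42 and 7.43 in cKO, higher in every cKO library. Per 1000 TPM of the B cell and plasma cell list, *Irf4* overlapped, with a range of 1.56 to 2.74 in WT and a highest value of 3.46 in cKO. *Irf8* against the B cell and plasma cell list and against the dendritic cell list overlapped between the groups. So did *Irf1* against the T cell list. *Irf4* against the T cell list was the only computed pair without overlap.

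The genes whose pattern across the 6 libraries was most like that of a member were searched among 12672 genes with a mean of at least 5 TPM. Pearson's r of log2(TPM + 1) is given as a description, since the 6 points hold both groups and a group difference alone gives a high r. For *Irf8* the closest were *Slc28a2*, *Tspan32* and *Ly9* (r = 0.998 to 0.996), for *Irf5* *Sit1*, *Arhgap15* and *Ctla4* (0.996 to 0.995), and for *Irf7* *St6galnac1*, *Actr3* and *Lef1* (0.996 to 0.995). For *Irf9* they were *Tap2*, *Fam78a* and *Tapbp* (0.997 to 0.993), of which *Tapbp* is on the interferon gamma list. For *Irf1* they were *Sdc1*, *Cd200r1* and *Pqlc3* (0.999 to 0.995), for *Irf4* *Pglyrp2*, *Tes* and *Xlr4a* (0.997 to 0.994), and for *Irf2* *Ighv5-9*, *Derl3* and *Sirpb1c* (0.986 to 0.978). *Irf3* had *Cyp20a1*, *Tm9sf1* and *Rgma* (0.995 to 0.988). Between the members, *Irf1* and *Irf8* were most alike (r = 0.978), while *Irf3* reached at most 0.412, with *Irf9*.

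An accessible region was listed at *Irf1*, *Irf2* and *Irf3* and at no other member. Of the 8 members, 3 had a region of the deposited ATAC-seq table within 1000 bp of a gene end, where 51.5% of 15518 genes with RNA and a position had one. Each of the 16600 regions overlapped a peak in at least 2 of the 4 libraries. The values are the authors' means per group, in log2 normalised reads, with no value per library, so no test was made here on them. At *Irf1*, the region at chromosome 11 from 53769290 to 53770492 held 5.26 in WT and 3.56 in cKO, a log2 difference of -1.70. At *Irf2*, the region at chromosome 8 from 46739351 to 46741367 held 6.27 in WT and 3.06 in cKO, a difference of -3.21. At *Irf3*, the region at chromosome 7 from 44997266 to 44998420 held 5.19 in WT and 3.61 in cKO, a difference of -1.58. All 3 spanned the annotated start and all of the promoter windows printed above for these genes. The *Irf2* region also lay within 1000 bp of an end of *Gm16675* and the *Irf3* region of *Bcl2l12*, so those values cannot be given to 1 gene alone.

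Lower values in cKO were the rule among the regions listed at gene ends. Of 8002 regions within 1000 bp of a gene end, 89.0% were lower in cKO by a log2 difference of 1 or more, and their median difference was -2.50, against -1.57 over all regions. The differences at *Irf1* and *Irf3* were thus smaller than that median by 0.80 and 0.92, and 76.2% and 79.4% of gene-end regions lay lower. The difference at *Irf2* was larger, with 25.1% of gene-end regions lower, and its WT value was above 89.3% of them. At a stricter limit of a log2 difference of 2, *Irf2* alone of the 3 remained, against 67.6% of gene-end regions. The direction is not independent of how regions were listed, since 15295 regions had a peak in exactly 2 libraries. At an end, 51.6% of genes had a peak in both WT libraries and 2.27% in both cKO libraries. The *Irf2* and *Irf3* regions had peaks in the WT libraries alone. How far this listing sets the lower cKO values was not tested.

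The peak lists of single libraries are not independent of the regions, which all overlap them. At *Irf1*, *Irf2* and *Irf3* both WT libraries had a peak across the start, and 51.6% of genes had a peak at an end in both. At *Irf1* these ran from 252 bp before to 478 bp after the gene's 5' end in WT replicate 1 and from 582 bp before to 438 bp after it in WT replicate 2. In WT replicate 1 alone, peaks also lay across the 5' ends of *Irf7*, *Irf8* and *Irf9*, and past the far ends of *Irf5* and *Irf8*. *Irf4* had no peak within 1000 bp of an end in any library. In the cKO libraries the one peak within 1000 bp of an end of a member was in replicate 2 at *Irf1*, from 724 to 359 bp before the 5' end. Peaks elsewhere over the gene bodies were present in cKO, with 5 and 3 over *Irf2*, 1 and 1 over *Irf4* and 1 and 1 over *Irf8*. In cKO replicate 2 alone there was 1 over *Irf1* and 1 over *Irf9*. The peak of cKO replicate 2 before the *Irf1* 5' end covered no base of the promoter window, where the WT peaks of both libraries covered all 300 bases. By count, 7 of 8 members had a peak at an end in WT replicate 1 and 3 of 8 in WT replicate 2, against 65.1% and 58.2% of genes. In cKO replicates 1 and 2 the counts were 0 and 1 of 8, against 13.6% and 13.9% of genes, and 0 of 8 had one in both, against 2.27%. The libraries held 76522 and 42265 peaks in WT and 55902 and 68317 in cKO, so cKO replicate 1 had more peaks than WT replicate 2 and none within 1000 bp of an end of a member. For 8 genes these counts lay near the shares of all genes, and nothing particular to the IRFs is read from them. Because 2 libraries a group are too few for an exact p under 0.05, the peak counts were left without a test.

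**Figure D5:**
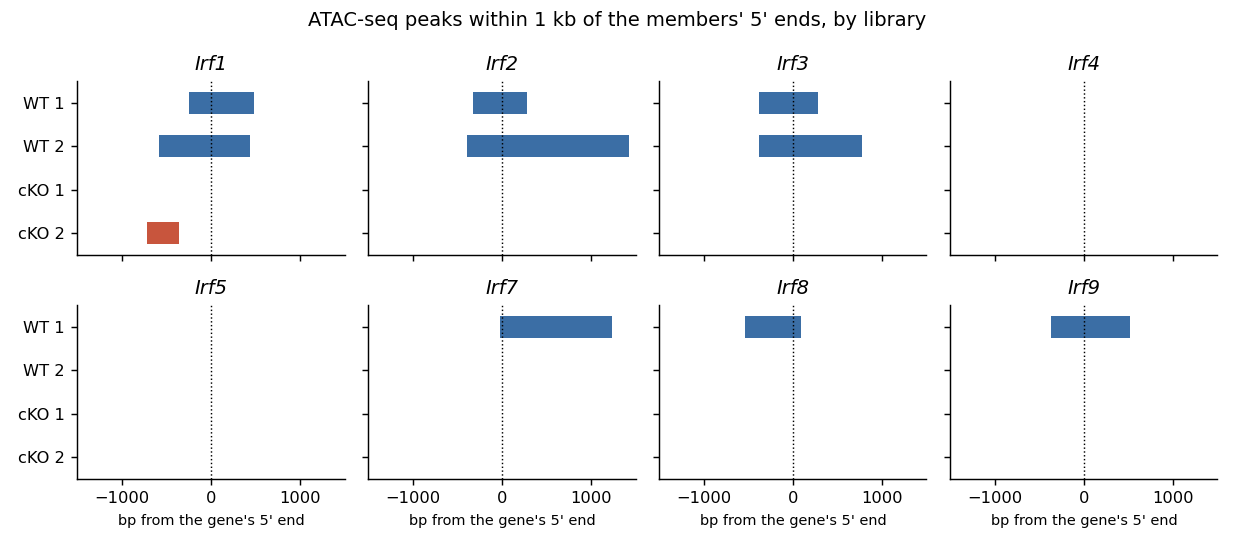
ATAC-seq peaks within 1000 bp of each member's 5' end, in each of 4 libraries (rows, blue WT, red cKO), by distance in bp from the 5' end, with positive values into the gene. Both WT libraries have a peak across the end at *Irf1*, *Irf2* and *Irf3*, WT replicate 1 alone has one at *Irf7*, *Irf8* and *Irf9*, and the single cKO peak lies before the end of *Irf1*.

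Side by side, the RNA and ATAC values did not rank the members alike. *Irf2*, with the largest accessibility difference (-3.21), had an RNA log2 fold change of -0.62, and *Irf1*, with a smaller one (-1.70), had -1.26. *Irf3* had the smallest value on both measures, at -1.58 and -0.13. The 5 members without a region, *Irf4*, *Irf5*, *Irf7*, *Irf8* and *Irf9*, had RNA log2 fold changes from -1.03 to -1.73, and *Irf1* lay within that range. With 3 regions this is a description, and no test was made.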

How the data were processed

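RNA-seq and ATAC-seq were made from sorted retinal cells. Per the labels and the study's methods, the authors trimmed reads, quantified them with Salmon 1.0.0 and deposited TPM values per gene and library. TPM keeps no depth, so no counting interval can be given. For ATAC-seq, the authors aligned reads with Bowtie2 2.3.5.1 to GRCm38, called peaks with MACS2 2.2.5 and deposited the log2 of mean normalised reads per region and group, and peak positions per library. Their tables also hold fold changes, p-values and FDRs of their own comparisons, which were not used.

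Genes that reached a TPM of 1 in 3 or more of 6 libraries were kept, and log2(TPM + 1) was compared with limma 3.58.1 in R 4.3.3 (empirical Bayes with a trend), adjusted over all genes tested by Benjamini-Hochberg, threshold 0.05. On this scale, changes of genes with low TPM are understated. Groups came from the labels, and since no source says that libraries of a group came from separate experiments, p-values measure only the spread between these libraries. Deviations of same-numbered libraries correlated at 0.334, 0.101 and 0.425. Differently numbered libraries were not compared and the labels state no pairing, so whether the numbers pair the RNA-seq libraries is not known. The main fit was therefore left without a block. Regions and peaks were matched to RefSeq gene ends on GRCm38.p6 within 1000 bp, counting from 1, and 15518 of the 17555 genes tested had a position. Promoters are RefSeq sequences on GRCm38.p6. Scripts were tested on simulated data and used Python 3.11.15, numpy 2.4.6, pandas 2.3.3, scipy 1.17.1 and matplotlib 3.10.9.

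The members, pathway lists and marker lists were chosen with earlier results of these data known. Named are all members, *Arid1a*, in each pathway list the 2 genes with the largest absolute log2 fold change and the 2 with the highest mean TPM, the 3 genes most like each member, genes sharing a member's region, and markers that bear on the sort. One gene that this rule names is not reported here. Alternatives were a pseudocount of 0.1, no filter, a mean TPM of at least 5, median of ratios scaling, no trend, a block for the replicate number, leaving out each library, a window of 3000 bp, peaks on the end itself and a log2 difference of 2.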

Additional observations from a re-analysis of the deposited data

How the results depend on the processing

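No member was called under any alternative of the RNA-seq fit, and *Irf1*, *Irf2*, *Irf4*, *Irf5*, *Irf7*, *Irf8* and *Irf9* stayed lower in the libraries labelled cKO throughout. *Irf3* turned to 0.0974 without WT replicate 2 and to 6.59e-05 without cKO replicate 1, and ranged from -0.32 to 0.10 when each library was left out. Members lower at an unadjusted p under 0.05 numbered from 4 to 6 when a library was left out and 5 to 7 otherwise. With the replicate block, the lowest limma adjusted p was 0.0585 for *Irf8*, and the block changed no call of a member, while 1 gene of all tested was called lower where the fit without it called 0. Without the variance trend 4 genes were called higher instead of 1, and leaving out a library gave 0 to 1 lower and 0 to 1 higher. No paired analysis was possible because (for ATAC-seq) only 1 value per group and region was deposited.

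The median of the receptor and kinase list was -0.51 at a mean TPM of at least 5, -0.49 under median of ratios scaling and -0.45 to -0.32 without single libraries. That of the IRF4 and IRF8 partners ran from -1.37 to -0.61, and that of the IRF2 cofactors was -0.56 under median of ratios scaling and ran from -0.49 to 0.0014. A log2 difference of 2 kept 1 member region. Within 3000 bp, 2 members had a peak in cKO replicate 1 and 4 in cKO replicate 2, and with the peak on the end itself 0 in cKO replicate 2. No share of all genes is given at either setting, so nothing particular to the members is read from these counts. Asking for 1 library in place of both, chosen after seeing the data, gave 3 to 7 members in WT and 0 to 1 in cKO. The causes were not tested. Depth is unknown, 3 libraries a group allow no exact p under 0.1, and among WT libraries *Ifng* and the T cell list were lowest in replicate 2.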
